A study of Mus musculus with 24 samples.

Results

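The regions described here were open chromatin in mouse epidermal stem cells (EpdSCs) before SOX9 was switched on (D0) and still 1 week later (W1), and had no peak at 2 weeks (W2), 6 weeks (W6) or 12 weeks (W12). They were found by merging the 5 in vivo ATAC-seq peak lists wherever peaks shared at least 1 bp and keeping the merged regions that had a peak at D0 and at W1 and none later. Of 98240 merged regions, 4068 met that rule, which is 4.14% of all regions and 8.39% of the 48505 regions open at both D0 and W1. They are called early-only regions below. The regions were thus chosen by the in vivo peak calls, so the presence or absence of an in vivo peak and its strength are given as a description.

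ATAC-seq, in which Tn5 transposase cuts accessible DNA, was applied to 24 samples in 12 groups of 2 replicates. The in vivo cells came from the back skin of male CD1 mice of genotype K14rtTA; TRE-myc-Sox9, in which the Krt14 promoter drives the activator rtTA in basal keratinocytes and doxycycline (DOX) then turns on a myc-tagged Sox9 transgene. The mice were 21 days old for D0, 28 for W1, 35 for W2 and 63 for W6, and DOX began at the age of 21 days. The W12 cells came from neonatal skin of the same genotype that had been grafted onto immunocompromised hosts. In all 5 groups the cells were sorted as negative for CD31, CD45, CD117, CD140a and CD34 and high for CD49f and Ly6A, with several mice pooled per replicate. No list from mice with K14rtTA alone was used here, so time on SOX9, DOX and the age of the mice cannot be told apart, and at W12 neither can grafting. The 7 culture groups were keratinocytes of male CD1 mice: K14rtTA; TRE-myc-Sox9 cells without DOX (noDOX) and with it (WT-SOX9), cells with TRE-myc-Sox9noHMG (ΔHMG-SOX9, without the DNA-binding domain) or TRE-myc-Sox9noTA (ΔTA-SOX9, without the transactivation domain), and cells with TRE-FLAG-AFOS, with TRE-myc-Sox9 and TRE-FLAG-AFOS, or with TRE-myc-Sox9 and TRE-ARID1a. DOX was given at 1 µg per ml, for 3 days by the labels of replicate 1 of WT-SOX9, ΔHMG-SOX9 and ΔTA-SOX9. The labels of replicate 2 of these groups and of the arms with AFOS or ARID1a name no length of treatment, so the 6 arms may differ in it. AFOS is a dominant-negative FOS that keeps AP1 dimers off DNA, and ARID1a belongs to SWI/SNF, a chromatin remodelling complex. The SOX9 variants, AFOS and ARID1a were delivered by lentivirus per the study's methods.

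EpdSCs sit in the basal layer of the epidermis and renew the skin barrier. GATA3 is a zinc-finger transcription factor that binds GATA words in DNA and is needed for epidermal differentiation and barrier lipids. SOX9 is a master factor of the hair follicle stem cell lineage and is low in normal interfollicular epidermis. AP1 dimers of FOS and JUN proteins bind many keratinocyte enhancers.

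The authors merged both replicates of a group before they called peaks, so each group is 1 list and no spread between replicates can be given. Each share is followed by its 95% Wilson interval where one is given, for counting error alone, and regions are not replicates. The lists held 57334 to 75956 peaks in vivo and 49458 to 60231 in culture, and read depth is unknown. A list could hold a peak on weaker evidence at some times than at others, as the lowest deposited −log10 q was 14.5 for D0 and 9.37 for W1 but 4.21 for W2, 5.74 for W6 and 10.1 for W12. The list labelled W1 had no peak in exon 3 of Sox9, where the D0, W2, W6 and W12 lists had peaks with scores of 8.84 to 15.1, so results are also given with that list left out of the rule. Of 6 EpdSC markers, 3 to 4 had a promoter peak in each list (summed score 42.9 to 65.6). Krt5, Krt14 and Itgb4 had one at all 5 times, Ly6a had one at D0 and W2 only, and Trp63 and Itga6 had none. The defining markers Pecam1 and Cdh5 of endothelium, Ptprc and Cd3e of immune cells and Pdgfra of fibroblasts had none in any list, whereas Kdr had one at W2 and W6, Cd74 at D0, W6 and W12, and Col1a1 at all 5 times. Of the hair follicle stem cell markers, 4 of 6 had a promoter peak at D0, 3 at W1 and W2 and 5 at W6 and W12 (summed score 30.8 to 46.8). Of the melanocyte markers Mitf and Dct had a promoter peak at all 5 times (summed score 78.7 to 128) and Kit and Tyr had none, and of the Merkel cell markers Atoh1 and Isl1 had one (34.8 to 53.8) and Krt20 had none. The suprabasal markers had 1 or 2 of 4 (6.51 to 26.4). The part of other cells in the results was not tested.

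Sequences of 2 sets of early-only regions are shown first, all as the central 200 bp on the plus strand of GRCm38 and named by the nearest protein-coding transcription start site (TSS). The letters AGATAA, or TTATCT on the other strand, are in capitals: they are the GATA consensus word. Its share was highest in the early-only regions among the classes compared below (24.02%). Regions open at D0 alone (20.4%) and at W1 alone (19.9%) came nearest. The first set holds the 4 regions with the most copies of that word. The one nearest Zfand5 (chr19:21337359-21337558, intergenic) had 5 copies, those nearest Slc35g1 (chr19:38410434-38410633, intergenic) and Ctsd (chr7:142406848-142407047, intergenic) had 4, and the one in an intron of Pdzrn4 (chr15:92518602-92518801) had 3.
Zfand5: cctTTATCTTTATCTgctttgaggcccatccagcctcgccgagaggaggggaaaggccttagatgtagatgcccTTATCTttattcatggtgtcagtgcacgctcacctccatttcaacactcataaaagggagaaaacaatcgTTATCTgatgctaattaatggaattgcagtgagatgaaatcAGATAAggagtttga
Slc35g1: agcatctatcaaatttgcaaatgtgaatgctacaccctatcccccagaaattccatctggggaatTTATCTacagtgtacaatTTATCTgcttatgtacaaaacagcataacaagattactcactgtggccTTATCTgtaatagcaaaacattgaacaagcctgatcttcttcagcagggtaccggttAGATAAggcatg
Ctsd: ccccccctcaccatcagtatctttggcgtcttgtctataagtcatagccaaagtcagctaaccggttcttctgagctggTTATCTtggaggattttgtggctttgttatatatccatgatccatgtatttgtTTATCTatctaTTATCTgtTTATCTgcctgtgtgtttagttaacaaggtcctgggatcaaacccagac
Pdzrn4: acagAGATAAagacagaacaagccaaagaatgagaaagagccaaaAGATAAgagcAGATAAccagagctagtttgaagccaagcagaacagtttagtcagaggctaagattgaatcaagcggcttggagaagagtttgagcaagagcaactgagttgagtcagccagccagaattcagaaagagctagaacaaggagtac

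The region nearest Zfand5 had a peak score of 12.997 at D0 and 8.43 at W1, that of Slc35g1 4.65 and 13.3, that of Ctsd 3.30 and 4.09, and that of Pdzrn4 13.3 and 11.8. None of these 4 regions had a peak in any culture list. The score is the authors' normalized MACS2 peak score, with a lowest kept value of 3, and many copies of the word went with both low and moderate scores.

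The second set holds the 6 regions with the strongest peaks, ranked by the lower of their D0 and W1 scores, so that the word can be seen to be absent from the centre of most of them. They lie nearest 1600014C10Rik (chr7:38187896-38188095, in its intron), Ercc6l2 (chr13:63865366-63865565, in its intron), 1700015G11Rik (chr7:53271326-53271525, intergenic), Dlg2 (chr7:90871779-90871978, in its intron), Bmp3 (chr5:98798990-98799189, in an intron of Cfap299) and Rdh14 (chr12:10561985-10562184, intergenic).
1600014C10Rik: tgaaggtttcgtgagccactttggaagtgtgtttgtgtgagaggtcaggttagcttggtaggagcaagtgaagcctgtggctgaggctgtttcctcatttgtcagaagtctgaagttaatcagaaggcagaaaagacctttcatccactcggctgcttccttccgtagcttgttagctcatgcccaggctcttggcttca
Ercc6l2: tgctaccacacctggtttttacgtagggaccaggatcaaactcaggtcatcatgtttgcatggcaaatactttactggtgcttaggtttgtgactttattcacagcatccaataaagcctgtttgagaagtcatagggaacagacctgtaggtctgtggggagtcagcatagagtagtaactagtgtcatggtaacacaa
1700015G11Rik: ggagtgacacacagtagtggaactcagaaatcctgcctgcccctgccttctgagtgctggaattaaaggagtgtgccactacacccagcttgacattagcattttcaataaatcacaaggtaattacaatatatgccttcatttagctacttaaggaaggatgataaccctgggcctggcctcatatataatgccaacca
Dlg2: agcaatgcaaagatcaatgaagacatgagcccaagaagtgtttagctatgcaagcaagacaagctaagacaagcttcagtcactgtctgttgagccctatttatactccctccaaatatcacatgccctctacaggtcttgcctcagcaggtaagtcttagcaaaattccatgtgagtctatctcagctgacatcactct
Bmp3: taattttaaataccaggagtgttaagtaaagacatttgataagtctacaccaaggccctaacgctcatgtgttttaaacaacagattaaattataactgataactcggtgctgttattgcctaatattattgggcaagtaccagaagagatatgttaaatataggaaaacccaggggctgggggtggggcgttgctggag
Rdh14: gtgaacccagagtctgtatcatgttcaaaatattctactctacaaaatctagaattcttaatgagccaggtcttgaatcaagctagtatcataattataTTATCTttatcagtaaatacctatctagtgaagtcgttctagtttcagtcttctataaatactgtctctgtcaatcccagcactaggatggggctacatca

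Of these 6, the region nearest Rdh14 alone held the GATA word in its central 200 bp, although that nearest Ercc6l2 held 1 copy and that nearest Bmp3 held 2 over their full width. The strongest, in an intron of 1600014C10Rik, had scores of 99.6 at D0 and 124 at W1. Next came Ercc6l2 with 42.2 and 51.3, 1700015G11Rik with 47.2 and 39.5, Dlg2 with 32.6 and 37.4, Bmp3 (which encodes a BMP family ligand) with 32.0 and 40.5, and Rdh14 with 30.6 and 36.7. The remaining 4 of the 10 strongest regions lay nearest Pet117, Ryr2, Cd55 and Rab38, with a lower score of 27.96 to 29.4. Apart from the region nearest Cd55, which encodes a complement regulator and had scores of 4.77 with ΔHMG-SOX9 and 4.94 with SOX9 and AFOS, none of the 10 had a peak in any of the 7 culture lists. Strong as they were, 8 of the 10 lay over 2 kb from the nearest peak of any later list, and the exceptions, nearest Rdh14 and Cd55, lay 319 and 649 bp from one.

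Most early-only regions were weak peaks. Their median score was 5.19 at D0 (10th to 90th percentile 3.32 to 11.001) and 6.77 at W1 (3.63 to 14.3), against 15.7 and 16.7 in the 37116 static regions that were open in all 5 lists. Their score was above the median of the whole list in 12.9% of them at D0 and in 23.0% at W1. A score of at least 10 was reached by 509 of them at D0 and by 1005 at W1, and a score of at least 20 by 63 and 123. The fold enrichment over local background that the authors deposited had a median of 6.86 at D0 and 6.56 at W1.

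**Figure D1:**
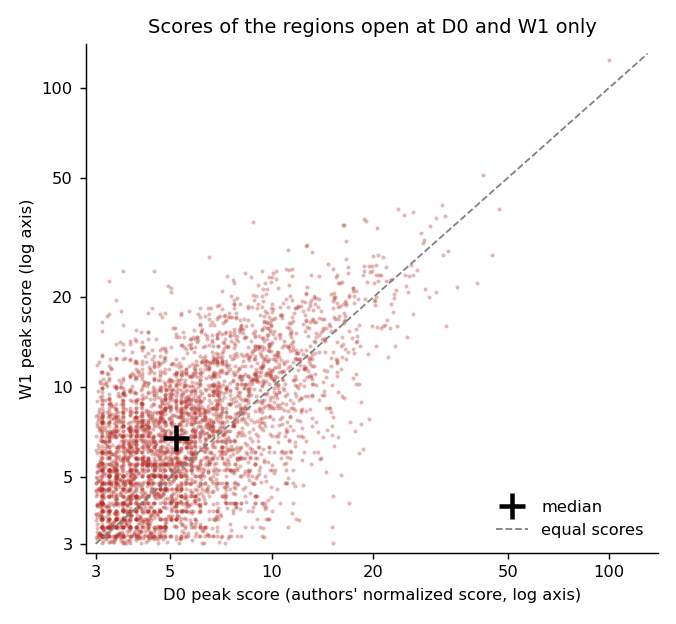
Each point is 1 of the 4068 early-only regions, placed by its D0 and W1 peak score on log axes, with the median as a cross and the line of equal scores dashed. The median is at 5.19 and 6.77, 801 points (19.7%) lie under 5 on both axes, and the point at the upper right is the region in 1600014C10Rik.

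Scores were for the most part no lower at W1 than at D0. In 2806 of the 4068 (69.0%) the W1 score was higher than the D0 score, with a median log2 ratio of 0.29 (quartiles −0.12 and 0.74), against 0.03 in static regions and 0.16 in the 7321 regions open at D0, W1 and some but not all later times. On the scale of fold enrichment the order turned, with W1 higher in 39.3% of the early-only regions and a median log2 ratio of −0.10, against −0.21 in static regions. Both measures come from the lists that chose the regions, and on both the early-only regions stood above the static ones at W1 relative to D0.

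How close the regions came to the rule's threshold varied. Of the 4068, 801 (19.7%) had scores under 5 at both times and 1819 (44.7%) had scores of at least 5 at both. A peak of a later list lay within 500 bp of 379 of them (9.32%), the closest at 10 bp, while the median distance to a later peak was 4562 bp. Just outside the rule were 3176 regions open at D0, W1 and exactly 1 later time, whose single later peak had a median score of 4.42 and in 39.5% of cases one under 4. The number of members was 6673 when all lists were held to the −log10 q minimum of the D0 list, and 6105 when the lists were cut to the length of the shortest. Left without the W1 list, the rule gave 5492 regions.

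Early-only regions were distal. Within 1 kb of a protein-coding TSS lay 94 of them, or 2.31% (1.89 to 2.82), against 27.8% (27.3 to 28.2) of static regions and 4.32% (4.16 to 4.49) of the other 57056 dynamic regions, that is those absent from at least 1 list. Introns held 1903 of the midpoints (46.8%), intergenic DNA 1923 (47.3%) and exons 148 (3.64%). The median distance to a protein-coding TSS was 42186 bp, against 14684.5 bp for static regions. The median width was 508 bp, and the median GC content of the central 200 bp was 46%, below the 50% of all regions. The promoter share was 3.04% with the W1 list left out, 5.08% with the common −log10 q minimum, 3.70% with lists of equal length, 3.62% where a list counted only if its peaks covered at least 50% of the region, and 1.52% once regions with a later peak within 500 bp were dropped.

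Among the 94 promoter-proximal regions, the strongest lay 998 bp from the TSS of Lrrc8b, a subunit of volume-regulated anion channels, with scores of 16.9 at D0 and 15.4 at W1 and a later peak 233 bp away. It was followed by the promoter of Gabrp, a GABA-A receptor subunit, at 27 bp from the TSS with scores of 10.5 and 11.7. The promoter of Skint11, of a gene family expressed in skin and thymus, had scores of 15.3 and 6.39 and no later peak within 120842 bp. Grap2 had 7.78 and 11.8, and Trpv5, an epithelial calcium channel, had 6.90 and 8.52. None of these 5 had a peak in culture.

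The clearest feature that the rule did not use was the GATA word. AGATAA or TTATCT stood in the central 200 bp of 977 early-only regions, or 24.02% (22.7 to 25.4), against 10.5% of all regions. The share was 20.4% (18.4 to 22.6) in regions open at D0 alone, 19.9% (18.8 to 21.1) in those open at W1 alone, 16.1% (15.3 to 16.9) in those open at D0, W1 and some later times, and 8.25% (7.98 to 8.54) in static regions. Regions open at W2 alone had 14.4% (13.1 to 15.8), those that appeared by W2 and stayed had 7.91% (7.33 to 8.53), and those open only at W6 and W12 had 7.31% (6.72 to 7.96). Among these classes the word was most frequent in the early-only regions. The difference from all other dynamic regions was 13.1 percentage points (11.8 to 14.5) and that from regions open at D0 alone was 3.62 points (1.10 to 6.04). With the W1 list left out of the rule the share was 23.1%.

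Base composition was checked with the same letters in reverse order, AATAGA or TCTATT. That word was in 9.17% (8.32 to 10.1) of early-only regions and in 8.37% of the other dynamic regions, a difference of 0.80 points with an interval that held 0 (−0.08 to 1.76). The difference was 1.86 points (0.16 to 3.40) from regions open at D0 alone and 1.17 (0.11 to 2.28) from those open at D0, W1 and some later times. From static regions it was 3.60 points (2.72 to 4.55). Relative to regions open at D0 alone, the ratio of shares was 1.18 for the GATA word and 1.25 for the reversed word. The part of base composition in that GATA difference was not tested. More than 1 copy of the GATA word was also more frequent: 134 early-only regions (3.29%) held 2 and 13 (0.32%) held 3 or more, against 0.86% and 0.07% of the other dynamic regions.

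The GATA share was higher in early-only regions within each of 5 bins of GC content. In the bin with the lowest GC content (23 to 44%) it was 32.0% (29.8 to 34.3) against 18.4% in other dynamic regions, and in the next (44.5 to 48%) 27.7% against 12.2%. At 48.5 to 52% GC it was 15.2% against 9.28%, at 52.5 to 57% it was 12.7% against 6.26%, and in the highest bin 7.73% (4.88 to 12.03) against 2.504%. The reversed word was lower in the early-only regions in 3 of these bins and higher in 2, with 13.2% against 14.9% in the lowest bin, 10.1% against 9.71% in the next, 6.17% against 6.68%, 2.04% against 3.92% and, in the highest bin, 2.73% (1.26 to 5.82) against 1.8998%.

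Stronger early-only regions held the word more often. The share was 20.99% (19.2 to 22.9) at D0 scores from 3 to 5, 25.8% (23.7 to 27.9) from 5 to 10 and 29.5% (25.7 to 33.6) at 10 or more. In the other regions open at both D0 and W1 it was 8.84%, 9.92% and 9.53% in the same bins, with no such order. These comparison regions were mostly static: 37116 were open in all lists and 7321 at some but not all later times. By location, the share was 24.6% in introns, 24.8% in intergenic DNA, 17.02% (10.8 to 25.9) near promoters and 10.8% (6.76 to 16.8) in exons.

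**Figure D2:**
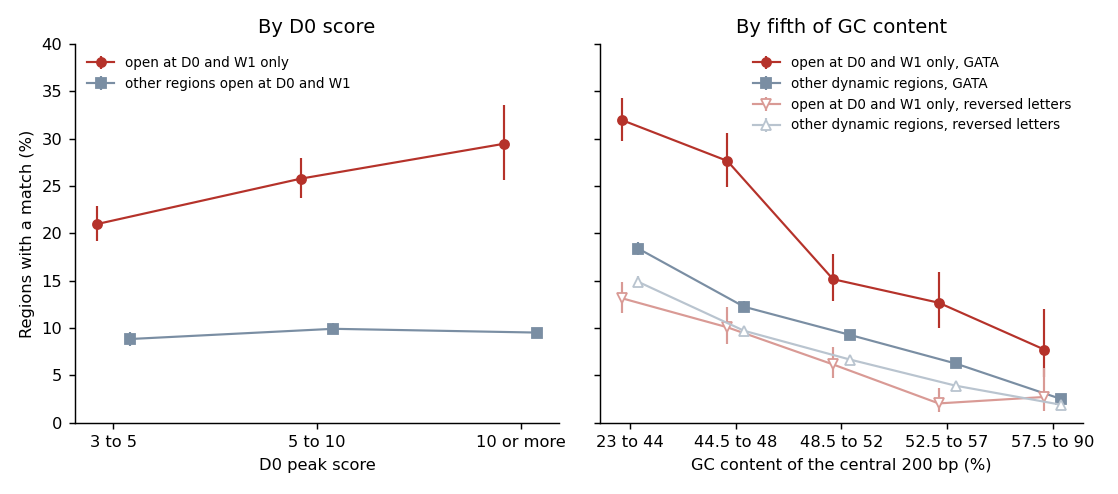
Share of regions with the GATA word in the central 200 bp, with 95% Wilson intervals, by D0 peak score (left) and by 5 bins of GC content (right, with the reversed word as open symbols). Early-only regions (red) lie above the comparison regions in every bin for the GATA word, from 20.99 to 29.5% by score and from 32.0 down to 7.73% by GC content, and for the reversed word in 2 of the 5 bins of GC content.

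Matches were concentrated around the peak summits. Around the D0 summit, the base with the highest pileup in the authors' peak, a 25 bp bin within 50 bp held the GATA word in 3.82% of early-only regions on average, against 1.93% in bins beyond 150 bp, a ratio of 1.98. In the other regions open at D0 and W1 the values were 1.39% and 1.21%. For the reversed word, bins near the summit held fewer matches than bins far from it, 1.14% against 1.57%, in the early-only regions. The highest bin was at 50 to 75 bp (4.45%), and that at −25 to 0 bp was lower (3.02%).

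**Figure D3:**
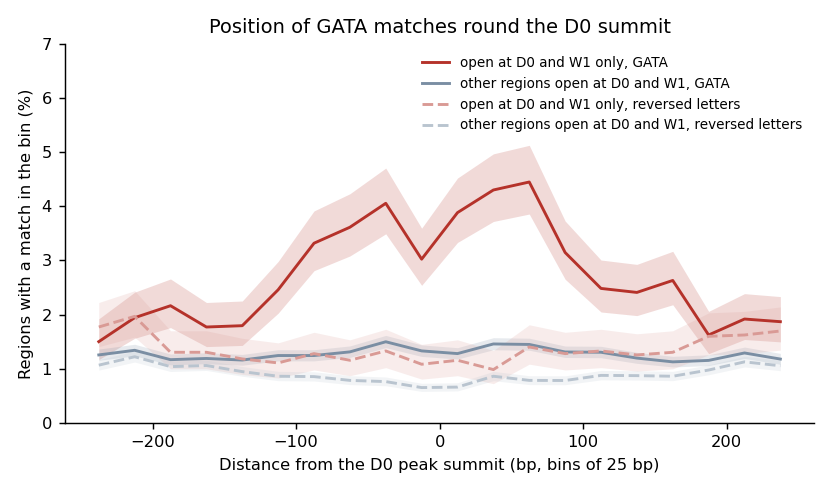
Share of regions with a match in each 25 bp bin by distance from the D0 summit in bp, with 95% Wilson intervals as bands. The GATA word in early-only regions reaches 4.45% per bin near the summit and averages 1.93% beyond 150 bp, while the GATA word in other regions open at D0 and W1 and the reversed word in both sets lie at 1.97% or below throughout.

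Without choosing a word beforehand, the shares of all 2080 words of equal length, both strands counted together, were ranked by their difference between early-only and other dynamic regions. AGATAA had the highest difference, and 11 of the first 20 words held GATA. Next came CTTATC (17.7% against 7.25%), TGATAA (17.6% against 7.97%) and GAGATA (16.9% against 8.01%). The last 2 in the ranking were GAGTCA (17.7% against 30.2%) and GACTCA (16.0% against 28.5%), which are parts of the AP1 word. ACAATG, part of the SOX word, was at rank 2078 with 6.56% against 14.01%.

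The AP1, SOX and RUNX words were less frequent in the early-only regions than in those gained by W2 and kept. Each was sought on both strands of the central 200 bp: TGACTCA or TGAGTCA for AP1, ACAATGG or ACAATAG for SOX, TGTGGT for RUNX, TTGGCA for NFI, AACCNGTT for grainyhead-like factors (GRHL), CACACCC for KLF, CATTCC for TEAD, CCGGAA for ETS, GCCNNNGGC for AP2, TTGCNNAA for C/EBP, TGTTTAC for forkhead factors, CTAATTA for LIM homeodomain factors (LHX), CAGCTG for basic helix-loop-helix factors, AGGTGTGA for T-box factors, and the p63 half-site and the CTCF core. The KLF and T-box words can share letters. The AP1 word was in 10.3% (9.45 to 11.3) of early-only regions, 22.7% of other dynamic regions, 15.8% of static regions and 26.9% of regions gained by W2 and kept. The SOX word was in 2.14% (1.74 to 2.63), against 6.98%, 3.14% and 12.2% in the same sets. The RUNX word was in 11.2% (10.3 to 12.2), against 16.9%, 12.1% and 19.04%. The AP1 and RUNX words were still more frequent in regions open only at W6 and W12, with 39.96% and 23.1%. Regions open at W2 alone were nearer to the early-only regions for AP1 (9.42%, 8.34 to 10.6) and RUNX (12.1%, 10.9 to 13.4) but not for SOX (9.73%, 8.64 to 10.95). In regions open at D0 alone the AP1, SOX and RUNX words were in 17.4%, 2.53% and 13.3%. In those open at W1 alone they were in 7.12%, 2.44% and 12.8%, so AP1 was lower there than in the early-only regions. In those open at D0, W1 and some later times they were in 15.6%, 2.73% and 12.4%. The SOX difference between early-only regions and those open at D0 alone had an interval that held 0 (−1.43 to 0.46 points). With the W1 list left out of the rule the shares were 12.2% for AP1, 2.24% for SOX and 11.8% for RUNX.

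The AP1 share was lower also among regions of like D0 score, in a comparison with regions that were mostly static. At D0 scores from 3 to 5 the AP1 word was in 9.38% of early-only regions and 12.6% of the other regions open at both D0 and W1, from 5 to 10 in 11.2% and 16.2%, and at 10 or more in 11.2% (8.74 to 14.2) and 16.2% (15.8 to 16.7). Early-only regions that held an AP1 word had a GATA word in 27.6% (23.5 to 32.01) of cases, and those without one in 23.6% (22.3 to 25.01), and these intervals overlap.

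Of the remaining words, 5 were more frequent in the early-only than in the other dynamic regions. NFI, a half-site of factors active in skin and hair follicle, was in 22.6% (21.4 to 23.9) of early-only regions against 17.3% of other dynamic ones. GRHL, whose members are needed for epidermal barrier formation, was in 4.47% (3.88 to 5.15) against 2.66%, the p63 half-site in 3.47% (2.95 to 4.07) against 2.7999%, the forkhead word in 4.01% (3.45 to 4.65) against 3.19%, and LHX in 3.24% (2.74 to 3.83) against 1.91%. ETS and AP2 words were less frequent, with 2.16% (1.76 to 2.66) against 3.18% and 7.55% (6.77 to 8.40) against 8.52%. For KLF (10.005% against 9.35%), TEAD (15.4% against 14.7%), C/EBP (10.4% against 11.1%), basic helix-loop-helix (13.5% against 13.6%) and T-box words (1.16% against 1.45%) the interval of the difference held 0. The CTCF core was in 0.61% (0.42 to 0.91) against 2.84%. Against regions open at D0 alone, the interval of the difference held 0 for GRHL, p63, forkhead, LHX and AP2 words but not for NFI (0.29 to 5.17 points). Against those open at D0, W1 and some later times it held 0 for p63 but not for NFI, GRHL, forkhead and LHX. The p63 half-site was in 3.59% of regions open at W1 alone and the forkhead word in 5.42% of those open at W2 alone. A word is a match of letters and not a bound site. The median GC content was 46% in early-only regions and 48.5% in other dynamic ones. Apart from GATA and its reversed word, no word was compared within bins of GC content. The part of base composition in the shares of the other words was thus not tested.

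**Figure D4:**
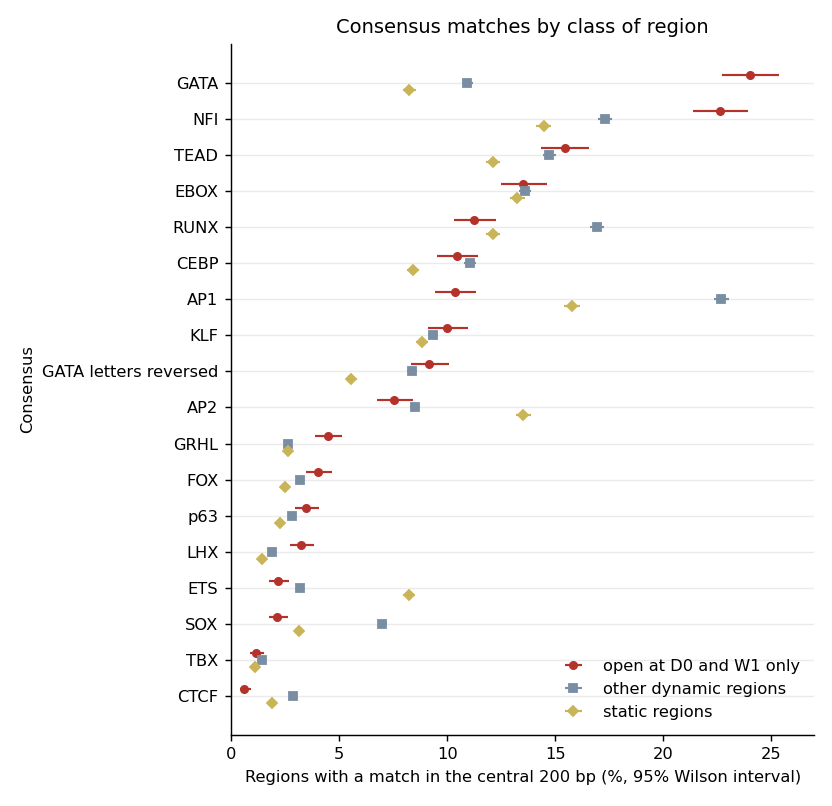
Share of regions with each consensus in the central 200 bp, with 95% Wilson intervals, in early-only (circles), other dynamic (squares) and static regions (diamonds). GATA is the highest for early-only regions at 24.02% and the farthest above the other sets, and AP1 (10.3%), SOX (2.14%) and RUNX (11.2%) lie below the other dynamic regions.

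In cultured keratinocytes most early-only regions had no peak. Without DOX, 358 of the 4068 had a peak, or 8.80% (7.97 to 9.71), against 45.5% of all regions, 74.99% of static regions and 31.3% (30.3 to 32.4) of those open at D0, W1 and some later times. A peak in any of the 7 culture lists was found in 764 (18.8%) and a peak in all 7 in 59 (1.45%), against 61.8% and 24.3% of all regions. Regions open at D0 alone (10.6%), W1 alone (11.4%) and W2 alone (11.7%) had noDOX shares near that of the early-only regions, while regions gained by W2 and kept had 37.3%.

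The low share held at each peak strength. Among early-only regions the noDOX share was 9.70% (8.44 to 11.1) at D0 scores from 3 to 5, 8.43% (7.19 to 9.86) from 5 to 10 and 6.68% (4.82 to 9.19) at 10 or more. Among the other regions open at D0 and W1, most of them static, it was 46.8%, 54.4% and 77.6% in the same bins, so the gap was widest among the strongest peaks. The GATA share was 25.3% (23.9 to 26.8) in early-only regions with no culture peak and 18.3% (15.7 to 21.2) in those with one. The noDOX share was 9.27% without the W1 list in the rule, 17.7% with the common −log10 q minimum, against 40.5% of the other dynamic regions so chosen, and 13.99% when the W12 graft list was left out.

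Of the early-only regions that were open in culture without DOX, more had no peak with WT-SOX9 than in the other arms. A region with a noDOX peak was called closed in an arm whose list had no peak there. WT-SOX9 closed 217 of the 358, or 60.6% (55.5 to 65.5), against 20.7% of all other noDOX regions. Among those others it closed 53.0% (45.0 to 60.8) of the 151 open in vivo at D0 alone, an interval that overlaps that of the early-only regions. It closed 42.5% (40.5 to 44.6) of the 2292 open at D0, W1 and some later times, and 11.9% of the 27820 static regions. ΔHMG-SOX9 closed 122 (34.1%, 29.4 to 39.1) against 15.1%, and ΔTA-SOX9 closed 152 (42.5%, 37.4 to 47.6) against 15.8%. AFOS alone closed 117 (32.7%, 28.03 to 37.7) against 15.8%, SOX9 with AFOS closed 156 (43.6%, 38.5 to 48.8) against 27.8%, and SOX9 with ARID1a closed 109 (30.4%, 25.9 to 35.4) against 18.5%. WT-SOX9 thus had the highest share of the 6 arms, with an interval above those of the others over all 358 regions, although not among those with the strongest noDOX peaks, and its difference from all other noDOX regions was 39.9 points (34.7 to 44.8). The WT-SOX9 share was 42.7% with the common −log10 q minimum, 48.4% with lists of equal length and 48.3% where a list counted only if its peaks covered at least 50% of the region. All arms share the noDOX list, and each is 1 list. The noDOX list came from K14rtTA; TRE-myc-Sox9 cells, and the cells of the arms other than WT-SOX9 had no list without DOX. The part of differences between the cells in the shares of those arms was not tested. In exon 3 of Sox9, which the transgene also carries, the noDOX list had a peak score of 3.71, WT-SOX9 21.2, ΔHMG-SOX9 71.9, SOX9 with AFOS 5.11 and SOX9 with ARID1a 3.71, and the ΔTA-SOX9 and AFOS lists had no peak there. Fragments are named as the input in the peak names of the 3 arms with AFOS or ARID1a and not in those of the other arms, and the part of peak calling was not tested.

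Weak noDOX peaks were closed more often in all regions, and the early-only regions had weak ones, with a median noDOX score of 6.08 against 19.3 in static regions and 8.01 in other dynamic ones. Within 4 bins of the noDOX score, of equal size over all noDOX regions, WT-SOX9 closed 72.2% (65.8 to 77.9) of 209 early-only regions in the lowest bin against 52.1% of the other noDOX regions, 54.2% (44.2 to 63.8) of 96 against 24.4% in the second, 30.6% (18.004 to 46.9) of 36 against 5.81% in the third and 17.6% (6.19 to 41.03) of 17 against 1.16% in the highest. In the lowest bin, which held most of the regions, 3 other arms gave shares whose intervals held that of the other regions. There ΔHMG-SOX9 closed 47.4% (40.7 to 54.1) against 44.0%, AFOS 42.6% (36.1 to 49.4) against 42.8% and SOX9 with AFOS 52.6% (45.9 to 59.3) against 53.8%. ΔTA-SOX9 closed 55.5% (48.7 to 62.1) against 43.7%. SOX9 with ARID1a closed fewer of the early-only regions than of the others in that bin, 36.8% (30.6 to 43.6) against 48.6%. In the third bin the shares of the early-only regions were above those of the others in every arm, from 11.1% (4.41 to 25.3) against 2.62% with ΔHMG-SOX9 to 30.6% against 17.8% with SOX9 and AFOS, which equalled WT-SOX9 there. Of the 17 regions in the highest bin, SOX9 with ARID1a closed 5 (29.4%, 13.3 to 53.1, against 2.22%), AFOS 4 and SOX9 with AFOS 4 (23.5% each, 9.56 to 47.3), WT-SOX9 3, and ΔHMG-SOX9 and ΔTA-SOX9 1 each, and these intervals overlap.

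**Figure D5:**
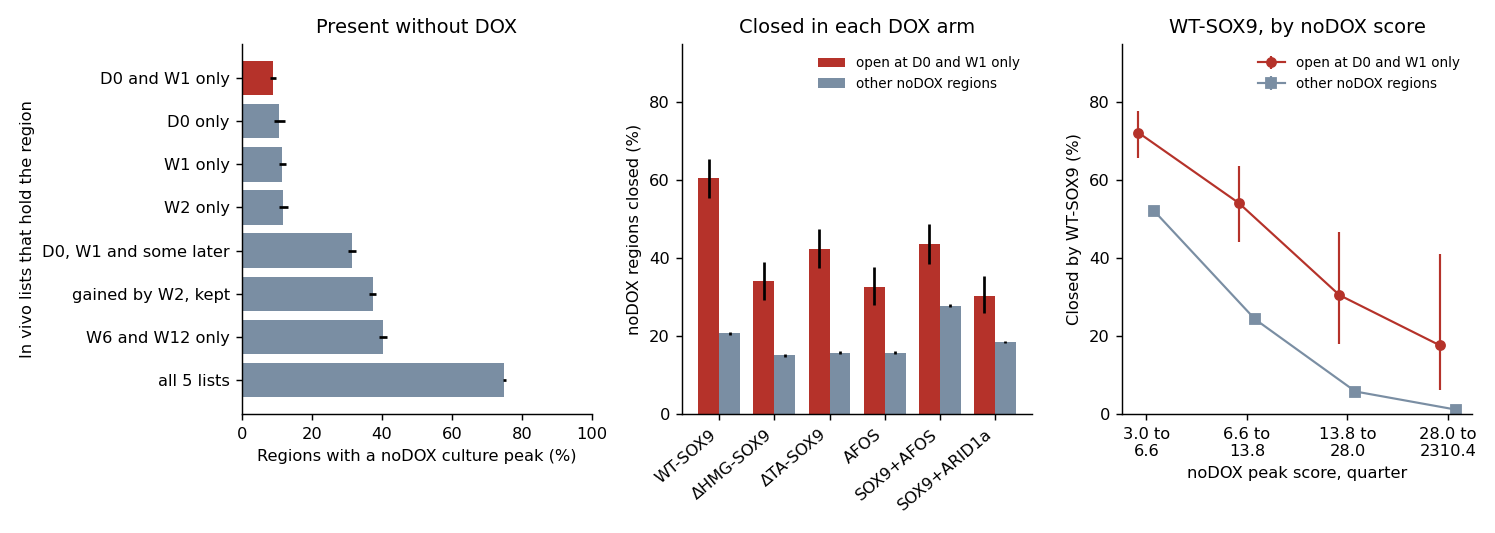
Left, share of each in vivo class with a noDOX culture peak. Middle, share of noDOX regions with no peak in each DOX arm, for early-only regions (red) and all others. Right, the WT-SOX9 share by 4 bins of the noDOX score. Bars and points carry 95% Wilson intervals. Early-only regions had a noDOX peak in 8.80% of cases, the lowest of the 8 classes, and WT-SOX9 closed 60.6% of these, from 72.2% in the lowest to 17.6% in the highest bin, above the other regions in each.

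Of the 217 regions that WT-SOX9 closed, 98 were also closed by ΔHMG-SOX9, which closed 122 of all 358. SOX9 with ARID1a had a peak at 134 (61.8%) of the 217, and it closed 109 of all 358. Across the 6 arms, 59 of the 358 were closed in none and 21 in all. Of the 44649 merged regions with a noDOX peak, 23867 were closed in none. The other overlaps were counted in the early-only regions alone, so no background share stands beside them. Early-only regions with a noDOX peak and a GATA word were closed by WT-SOX9 in 41 of 56 cases (73.2%, 60.4 to 83.0). Those without the word were closed in 176 of 302 (58.3%, 52.6 to 63.7), a difference of 14.9 points (1.03 to 26.3). Regions with and without the word were not matched for noDOX score, and the same split was not made for the other noDOX regions. Without the W1 list in the rule WT-SOX9 closed 58.3% of 509, and with noDOX peaks held to a score of at least 5 it closed 50.4% of 224. The opposite change was rare. Of the 3710 early-only regions with no noDOX peak, WT-SOX9 opened 56, or 1.51% (1.16 to 1.95). It opened 12.7% of the 40531 other dynamic regions with no noDOX peak, a set that includes regions gained by W2 and kept. ΔHMG-SOX9 opened 2.24% of the early-only regions, ΔTA-SOX9 2.78%, AFOS 3.56%, SOX9 with ARID1a 4.23% and SOX9 with AFOS 5.01%. In each of these arms the share of the other dynamic regions with no noDOX peak was also higher, from 5.76% with ΔHMG-SOX9 to 12.8% with SOX9 and AFOS.

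The 5 early-only regions with the strongest noDOX peaks did not behave alike. That at the promoter of Cd9, which encodes a tetraspanin, had a score of 55.7 without DOX, 25.2 with WT-SOX9, 46.5 with ΔHMG-SOX9, 32.8 with ΔTA-SOX9, 3.49 with SOX9 and AFOS and no peak with AFOS or with SOX9 and ARID1a. That in an intron of Vit, which encodes the matrix protein vitrin, had 49.1 without DOX, 6.25 with WT-SOX9, 10.9 with ΔTA-SOX9 and 20.9 to 22.99 in the other 4 arms. These are 2 regions with a lower score under WT-SOX9. The region nearest Mal, which encodes a membrane protein of epithelial sorting, had 49.2 without DOX and 51.98 to 142 in the 6 arms. That nearest Nr2f2 had 48.1 without DOX, 54.5 with WT-SOX9 and 22.1 to 65.1 in the other 5, and the promoter-proximal one of Acaa2, a mitochondrial thiolase, had 49.5 without DOX, 58.3 with WT-SOX9, 30.5 to 64.95 with AFOS, ΔTA-SOX9 and ΔHMG-SOX9 and no peak with SOX9 and AFOS or with SOX9 and ARID1a. In vivo these 5 had D0 scores of 3.46 to 13.3 and W1 scores of 4.33 to 19.9. Of the 10 strongest, 7 lay within 300 bp of a later in vivo peak, whereas those nearest Mal, Vit and Nr2f2 lay at least 12662 bp from one.

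The early-only regions were spread over the genome. They made up 7.16 to 10.8% of the regions open at both D0 and W1 on each chromosome from 1 to 19 and X, with chromosome 18 highest. The next merged region along the chromosome was also an early-only region for 397 of 4067 (9.76%, 8.89 to 10.7), against the 4.14% of all regions and the 8.39% of those open at both D0 and W1 that are early-only. No other early-only region lay within 20 kb of 3041 of them (74.8%), and 11 runs of at least 4 were found, the longest with 5 regions near Mybpc1. The run near Il12rb2 held all 4 regions open there at both times, with scores of up to 17.5 at D0 and 20.2 at W1, so neighbours could share the pattern although most members stood alone.

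By nearest TSS, 2708 of 21924 protein-coding genes (12.4%) had at least 1 early-only region, 311 had at least 3 and 60 had at least 5. The genes with the most were 4930412O13Rik with 12, Zfp608 and Galnt17 with 11, Satb1 and Saxo1 with 10, Atp10a with 9, Nr2f2 and Arid1b with 8, and Fndc1 and Hs3st3b1 with 7. Satb1 encodes a chromatin organizer that p63 controls in epidermis, Nr2f2 an orphan nuclear receptor and Arid1b a subunit of the same kind of remodeller as ARID1a. Genes in wide gene-poor stretches collect many regions: 4930412O13Rik was nearest to 130 merged regions and Zfp608 to 87. Measured against the regions open at both D0 and W1, the counts were 12 of 70 at 4930412O13Rik, 11 of 47 at Zfp608, 11 of 32 at Galnt17, 10 of 26 at Satb1, 10 of 18 at Saxo1 and 7 of 15 at Fndc1. They were 9 of 27 at Atp10a, 8 of 22 at Nr2f2, 8 of 40 at Arid1b and 7 of 27 at Hs3st3b1. For Galnt17 all 11 lay within the body of its neighbour Auts2.

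The gene with the most early-only regions lies inside another. 4930412O13Rik (chr2:9881252-9883921) is within the body of Gata3 (chr2:9857078-9890034, minus strand), so its regions are also those next to Gata3. This stretch was looked at after its count was seen. Together the 2 genes were nearest to 132 regions, of which 71 were open at D0 and W1, and 13 of these (18.3%, 11.02 to 28.8) were early-only, against 8.39% of all such regions. Of the 13, 12 lay in intergenic DNA downstream of Gata3, from 60266 to 866429 bp from its TSS, and 1 lay 29045 bp upstream in an intron of Taf3. The strongest was 193862 bp downstream with scores of 9.35 at D0 and 20.2 at W1, and another at 230651 bp had 7.27 and 16.6. The GATA word stood in 4 of the 13. None had a peak in any culture list, whereas 22 of the 45 static regions of the stretch had one without DOX. In the same stretch 10 regions were gained by W2 and kept, so both kinds of region lay in it.

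By gene list, the epidermal transcription factors had early-only regions at 18 of 32 genes, the EGF receptor pathway at 8 of 18, junctions and adhesion at 15 of 31, hair follicle factors at 14 of 29, TGF-beta and BMP at 10 of 25, AP1 subunits at 5 of 14, lipid barrier genes at 7 of 24, keratins and cornified envelope genes at 8 of 31 and the Notch pathway at 3 of 20, against 12.4% of all protein-coding genes. These genes also had many open regions. Of the regions open at D0 and W1 at their genes, early-only regions made up 10.5% (7.98 to 13.8) for the epidermal transcription factors, 12.1% (7.72 to 18.6) for the EGF receptor pathway, 10.5% for hair follicle factors, 10.6% for lipid barrier genes, 10.4% for keratins and the envelope, 9.75% for junctions, 8.71% for TGF-beta and BMP and 8.26% for AP1 subunits. Each of these intervals held the 8.39% of all such regions. The Notch pathway had 5 of 150, or 3.33%, with an interval below it (1.43 to 7.57).

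Within the epidermal transcription factors, Klf4, a factor of barrier formation, had 6 early-only regions out of 39 open at both D0 and W1. Klf5, a basal keratinocyte factor, had 5 out of 49, and 3 of these 5 held the GATA word. Of all regions open at both times, 8.39% were early-only. The strongest at Klf5, in an intron of Pibf1 at 61410 bp from the TSS, had scores of 15.9 at D0 and 18.7 at W1. Tfap2b had 5 out of 18 and Maf, a factor of terminal differentiation, 5 out of 29. Trp63, which encodes the epidermal master factor p63, had 3 out of 24 regions open at both times, with scores of at most 6.70 at D0 and 7.68 at W1. Ehf had 3 out of 14 and Rora 3 out of 17. Krt5 and Krt14, which encode the keratins of basal cells, had none, with 6 and 2 regions open at both times.

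In the EGF receptor pathway the neighbouring ligand genes Epgn and Areg had 3 early-only regions each, out of 13 and 10 open at both D0 and W1. That at 26265 bp from the TSS of Epgn, in an intron of Mthfd2l, had scores of 19.99 at D0 and 27.5 at W1 and a GATA word. All 3 regions at Areg held the GATA word, with scores of 3.46 to 4.65 at D0 and 5.30 to 10.6 at W1. One of these had culture scores of 4.81 without DOX, 10.7 with ΔHMG-SOX9, 16.2 with ΔTA-SOX9, 26.7 with AFOS and 7.13 with SOX9 and ARID1a, and no peak with WT-SOX9 or with SOX9 and AFOS. Nrg1 and the receptor gene Erbb4 had 3 each, out of 14 and 15, with D0 scores of at most 5.56 and 3.96.

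For the other lists, Fosl2, an AP1 subunit, had 4 early-only regions out of 23 open at both D0 and W1. All 4 lay in introns of its neighbour Babam2. The strongest had scores of 16.4 at D0 and 34.9 at W1, and in culture 3.31 without DOX, 21.6 with SOX9 and AFOS, 6.62 with SOX9 and ARID1a and no peak with WT-SOX9. Bach2 had 3. Tjp1, which encodes the tight junction protein ZO-1, had 4 out of 11, in its own introns, with scores of 3.01 to 11.4 at D0. Nfib had 4 out of 29, in its introns. Of the genes of the hair follicle and of growth signals, Axin2, a Wnt feedback gene, had 3 out of 16 and Tcf7l2 3 out of 25. Runx1 and Id2 had 3 out of 19 each, Bmp4 3 out of 13, Tgfb2 3 out of 14 and Bmpr1b 3 out of 15. Elovl6, a fatty acid elongase, had 3 out of 16. At Runx1, 14 of 56 merged regions were gained by W2 and kept beside the 3 early-only ones, and at Sox9, 11 of 112 beside 2. Over all genes 7854 of the 98240 merged regions were gained by W2 and kept. Axin2 had no region gained by W2 and kept, and Runx3, Krt79 and Cd34 had 5, 3 and 4 of these. Runx3 and Krt79 had no region open at both D0 and W1, so neither could hold an early-only region. Cd34 had 3 open at both times, all of them static.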

How the data were processed

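Peak lists from ATAC-seq of 24 mouse samples in 12 groups of 2 were used, with 1 list per group. The authors mapped the reads to GRCm38 (mm10), then merged the alignments of both replicates and called peaks with MACS2. The submitters' processing notes name Bowtie2 2.2.9, Picard 2.3.0, SAMtools 1.9, MACS2 2.1.1 and deepTools 2.5.4. Each deposited peak score had been normalized by the authors, and peaks under a score of 3 had been removed. The deposited scores add up to a nearly equal total in every list, so a score is relative to the other peaks of its list. The authors' MACS2 output also gave the fold enrichment at the summit and the −log10 q of each in vivo peak. Read totals are not in the lists, so the depth per sample is unknown.

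Peaks of the 5 in vivo lists were merged where they shared at least 1 bp, and a culture peak counted if it overlapped a merged region by at least 1 bp. Regions were assigned to the nearest protein-coding TSS of GENCODE M21, and 18 consensus words were sought on both strands of the central 200 bp in the RefSeq GRCm38 sequence, on chromosomes 1 to 19 and X. Merging and counting were tested on simulated data. Shares carry 95% Wilson intervals and differences of shares Newcombe intervals. No p-value was computed, since each group is 1 list. The genes named are the 10 nearest to the most members, the nearest to the 10 members with the highest lower score of D0 and W1, list genes nearest to at least 3 members, those of the printed sequences, and members near promoters, with noDOX peaks, in runs or near Gata3, which were chosen after their values were seen. Some named items are not reported here. Members and lists were chosen with earlier results of these data known. Alternatives covered the score minimum, overlap, list length, the lists in the rule, the sequence window and the TSS set. Python 3.11.15, pandas 2.3.3, NumPy 2.4.6, SciPy 1.17.1, pysam 0.24.0 and samtools 1.23.1 were used.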

Additional observations from a re-analysis of the deposited data

How the results depend on the processing

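No paired analysis was possible because the authors merged both replicates of each group before peak calling, and for the same reason no replicate could be left out. Of 43 alternatives, 24 moved a value by more than its counting interval or, for the number of regions, by more than 1.5 times. The number of early-only regions was 6673 with the −log10 q minimum of the D0 list applied to all lists and 6105 with lists cut to the length of the shortest. Under that q minimum the share near a TSS was 5.08%, the GATA share 20.3%, the noDOX share 17.7% and the share closed by WT-SOX9 42.7%. With lists of equal length the same shares were 3.70%, 21.4%, 12.5% and 48.4%. Where a list counted only if its peaks covered at least 50% of the region, the share near a TSS was 3.62%, the noDOX share 12.8% and the closed share 48.3%. Without the W12 list the GATA share was 22.01% and the noDOX share 13.99%, and without the W1 list the share near a TSS was 3.04%. It was 1.52% without regions that had a later peak within 500 bp, 10.5% within 5 kb of a TSS and 4.92% with the TSSs of all annotated genes. The GATA share was 13.7% in the central 100 bp, 43.1% over the full region and 25.7% around the D0 summit, the last chosen after seeing the data. The noDOX share was 6.69% where culture peaks covered at least 50% of the region, and the closed share 50.4% with noDOX scores of at least 5. In the main setting and the 7 that changed the rule, other dynamic regions had GATA shares of 10.7 to 11.47%, noDOX shares of 28.8 to 40.5%, closed shares of 29.99 to 36.2% and TSS shares of 4.30 to 6.12%, so the early-only regions lay on the same side of them each time. For the moved values the cause was not tested, beyond the wider or narrower windows and distances, which hold more or fewer bases by construction. Depth was unknown, so a missing peak may be a peak below the minimum.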
